A study of Mus musculus with 6 samples.

Results

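AP-1 is a family of transcription factors whose subunits pair through a basic leucine zipper before they bind DNA. The 9 subunit genes described here were Fos, Fosb, Fosl1 and Fosl2 of the Fos group, Jun, Junb and Jund of the Jun group, and Atf3 and Batf, which can pair with Jun proteins. They were found by matching NCBI mouse gene IDs to RefSeq symbols, which placed all 9 among the 27179 genes of the table, and 7 of the 9 passed the filter on low values. The genes were chosen by family name, but also with results of these same libraries known: the CPM of Fos and Jun and their difference between the groups had been seen. Their levels and their differences between the groups are therefore descriptions, and no p-value is offered as support for them.

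Fos and Jun are classical immediate early genes: their transcripts appear within minutes of growth factor, cytokine or stress signals, and decay as quickly. Serum response factor with its ternary complex partners acts on the Fos promoter, and Jun proteins phosphorylated by JNK act on the Jun promoter. Jun proteins can pair with each other or with Fos proteins, whereas Fos proteins need a Jun partner to bind DNA stably. Atf3 is a stress-induced member of the ATF group, and Batf, a short protein without a transactivation domain, works with Jun and IRF proteins in lymphocytes.

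The data were 6 RNA-seq libraries of LT-HSC, long-term stem cells of the blood that reside in marrow, sorted from C57BL/6 mice as Lin-Sca-1+c-Kit+ cells that carried CD150 and lacked CD48. Mice of both groups were 8 to 12 weeks old, carried conditional alleles of Prdm16, a zinc-finger transcriptional regulator (Cko/Cko), received 5 injections of pIpC, an RNA mimic that induces interferon, and were sampled 5 weeks later. Control mice (Prdm16-Mx1-Cko/Cko; +/+) had no Mx1-Cre, and knockout mice (Prdm16-Mx1-Cko/Cko; Tg/+) carried this transgene, in which the interferon-responsive Mx1 promoter drives Cre in many cell types and not in stem cells alone. Marrow of 5 mice was pooled per genotype and sorted into 3 technical replicates, so that the spread between libraries is that of portions of 1 pool and not of animals. Cre and the deletion of Prdm16 were present in the same group and cannot be told apart.

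Library totals ran from 36747729 to 43743795 reads. Prdm16 was at 40.3, 50.5 and 31.7 CPM (reads scaled to a common library total) in the control libraries and at 8.74, 9.04 and 14.7 CPM in the knockout libraries (log2 fold change -1.93, SE 0.27). All 12 LT-HSC marker genes listed for this purpose, such as Procr, Slamf1, Mecom and Hlf, had reads and passed the filter, and their summed level was 3423 to 3609 CPM in control and 3313 to 3630 CPM in knockout. Of the sort-gate genes, Cd3e and Cd8a were at 0 reads in all 6 libraries, and Cd48 was at 3.88 to 10.7 CPM in control and 5.68 to 17.7 CPM in knockout. Itgam, a myeloid gene of the lineage gate, was detected throughout, at 34.9, 46.4 and 40.1 CPM in control and 52.3, 38.6 and 46.6 CPM in knockout, with overlapping groups. Cd4 had 56, 11 and 29 reads in control and 199, 0 and 132 in knockout.

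The promoters of the 4 AP-1 genes that were called lower in knockout are shown first, as a description. RefSeq promoter windows (GRCm38.p6, 250 bases before to 50 after the annotated start) were available for 8 of the 9 genes, all but Fosl1. The 150 bases before each start are printed 5′ to 3′ on the coding strand, with capitals marking TATAAA, the first 5 bases of a cAMP response element (TGACG), and 8-base matches to the full element (TGACG followed by TCA) with at most 1 mismatch. They lie at chr12:85473740-85473889 (plus strand) for Fos, chr7:19310046-19310195 (minus) for Fosb, chr4:95052223-95052372 (minus) for Jun and chr8:84978749-84978898 (minus) for Junb.
Fos: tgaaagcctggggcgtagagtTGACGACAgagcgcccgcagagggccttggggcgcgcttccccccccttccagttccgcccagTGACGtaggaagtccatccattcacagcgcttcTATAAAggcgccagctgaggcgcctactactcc
Fosb: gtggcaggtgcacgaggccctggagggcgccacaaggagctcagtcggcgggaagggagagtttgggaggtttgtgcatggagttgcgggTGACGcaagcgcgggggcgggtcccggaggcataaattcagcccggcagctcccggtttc
Jun: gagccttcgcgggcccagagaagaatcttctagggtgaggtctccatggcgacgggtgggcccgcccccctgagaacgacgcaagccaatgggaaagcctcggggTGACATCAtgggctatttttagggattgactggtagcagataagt
Junb: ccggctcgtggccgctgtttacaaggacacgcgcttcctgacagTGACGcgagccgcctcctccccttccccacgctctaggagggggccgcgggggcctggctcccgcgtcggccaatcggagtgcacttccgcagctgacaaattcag

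Motifs were searched on both strands of the 300-base windows, except TATAAA, which was searched on the coding strand. Counted from the start used for each window, TGACG lay 129 and 66 bases before that of Fos, 60 before that of Fosb and 106 before that of Junb. It was also in the windows of Batf and, on the opposite strand, Atf3, so that 5 of 8 AP-1 windows held it, against 20.8% of 32851 windows of all genes. In Jun the match was TGACATCA, 45 bases before the start, and the element with at most 1 mismatch was found in Fos, Jun and Atf3, against 12.5% of all windows. These searches were chosen after the sequences had been seen. TATAAA stood 33 bases before the start of Fos and at the annotated start of Junb, against 8.32% of all windows. The TPA response element TGACTCA (5.2% of all windows), the complete cAMP response element (1.79%) and the CArG box of serum response factor (1.63%) were in none of the 8 windows, which says only that these letters are not in these 300 bases. Motifs with at most 1 mismatch overlap with TGACG, and matches were not shown to be bound. Annotated starts differed between sources. For Fosb the RefSeq gene span begins 73 bases upstream of the start used for its window, so that 73 of the 150 printed bases and the TGACG match lie inside that span, while the GENCODE gene begins 6 bases upstream of that start. The GENCODE start lies 30 bases downstream of the start used for Junb and 1210 bases downstream for Jund. For Batf, Fosl2 and Atf3 it lies 51, 671 and 34706 bases upstream. For Fos and Jun all 3 starts were the same base.

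Across the family, 4 of the 7 genes that passed the filter of 1 CPM in at least 3 libraries were called lower in knockout and 0 higher (limma over all 13018 genes that passed, adjusted p below 0.05). At an unadjusted p below 0.05 and with voom the higher count was also 0. Of all 13018 genes tested, 1342 had an unadjusted limma p below 0.05, in either direction, and voom called 52 lower and 61 higher. Over all genes 0.292% were called lower, 0.407% higher and 0.699% in either direction, and since this contrast was known when the genes were picked, nothing is read from the count. The 4 were Fosb, Fos, Jun and Junb, and in each of them every knockout library was below every control library. Over all genes 8.01% had such separated groups with knockout lower. The log2 fold change was negative for 6 of the 7 genes, against 49.5% of all genes. Its median over the 7 was -0.77, and that of all genes tested was 0.003. Nearest to the threshold were Junb among the called genes (limma adjusted p = 0.00738) and Fosl2 among the others (0.52). In bulk libraries fewer cells that carry a transcript and less of it per cell cannot be told apart.

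**Figure D1:**
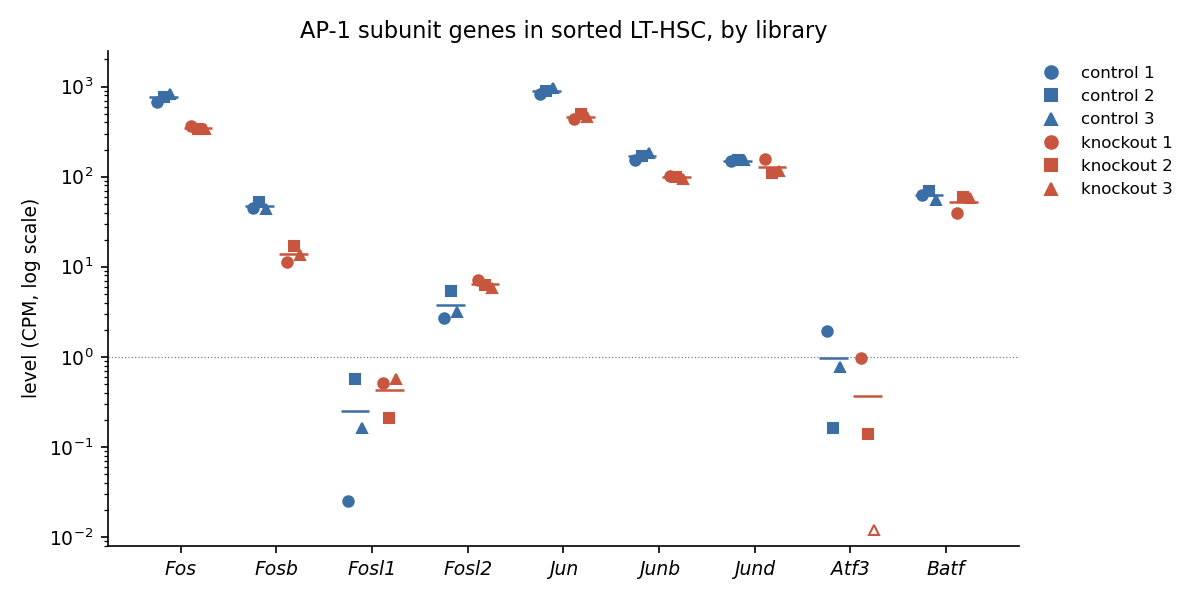
Level of each AP-1 gene in each library, as CPM on a log axis. Filled points are libraries, short lines are group means over 3 libraries, the open triangle is a library with 0 reads drawn near the foot of the axis, and the dotted line marks 1 CPM, the level of the filter. Fos, Fosb, Jun and Junb have all knockout points below all control points, and Fosl2 has them above.

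Fos, the founding partner of Jun in AP-1 (gene ID 14281, chromosome 12, 85473890 to 85477274, the RefSeq GRCm38.p6 gene span, as for the other genes), was at 673, 767 and 830.3 CPM in the control libraries and at 369.6, 338 and 337 CPM in the knockout libraries. The knockout libraries differed little among themselves and the lowest control library was well above them. Mean levels of 757 ± 79.0 and 348 ± 18.5 CPM (SD over 3 libraries each) differed by -1.12 on the log2 scale (SE 0.08), which left knockout at 46.0% of control.

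Fosb, a Fos relative induced by the same kinds of signal (gene ID 14282, chromosome 7, 19302696 to 19310118), was at 44.5, 52.4 and 43.4 CPM in control and at 11.1, 17.0 and 13.4 CPM in knockout. No knockout library came near the control range. Its log2 fold change of -1.77 (SE 0.21) was the most negative of the 7 genes, and knockout stood at 29.6% of control.

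Fosl2 (Fra-2), a Fos-related subunit without the transactivation domain of Fos (gene ID 14284, chromosome 5, 32136472 to 32157840), was low in these cells and went the other way. It had 2.70, 5.32 and 3.16 CPM in control and 7.06, 6.29 and 5.86 CPM in knockout, from 109 to 196 reads and from 256 to 270 reads per library. Every knockout library was above every control library, as for 8.52% of all genes, but the log2 fold change of 0.84 (SE 0.41) was not called. Control replicate 2 was close to the knockout range.

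Fosl1 (Fra-1), the other Fos-related subunit (gene ID 14283, chromosome 19, 5447698 to 5455938), did not pass the filter. Its reads numbered 1, 21 and 7 in control and 19, 9 and 25 in knockout, and the groups overlapped. It also overlaps Ccdc85b on the opposite strand, and without a stated strand setting reads of such pairs cannot be told apart.

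Jun, which can act as a homodimer or with Fos (gene ID 16476, chromosome 4, 95049036 to 95052222), was at 826, 902 and 961 CPM in control and 442, 491 and 460.1 CPM in knockout. The 2 groups were far apart compared with the spread within each. Mean levels of 896 ± 67.6 and 464 ± 24.9 CPM (SD over 3 libraries each) differed by -0.95 on the log2 scale (SE 0.07), and knockout stood at 51.8% of control. The antisense gene Junos overlaps Jun and has no row of its own in the table.

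Junb, a Jun relative that can restrain the activity of Jun (gene ID 16477, chromosome 8, 84976909 to 84978748), was at 153, 169.7 and 181 CPM in control and at 102, 98.8 and 93.3 CPM in knockout. Here too the groups were apart, by a smaller margin. The log2 fold change was -0.77 (SE 0.11), and knockout stood at 58.5% of control. The Junb call depended on the fit: its adjusted p was 0.0965 without the mean-variance trend and 0.0518 without knockout replicate 3 when the tested genes were kept.

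Jund, the Jun subunit usually present in resting cells (gene ID 16478, chromosome 8, 70697739 to 70700616), was at 149, 151 and 153 CPM in the control libraries, the tightest control values of the family. The knockout libraries had 157, 111 and 117 CPM. Knockout replicate 1 was above the control range and the others below it, so the groups overlapped, and the log2 fold change of -0.26 (SE 0.13) was not called. The antisense gene Gm11175 overlaps Jund and is likewise without a row.

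Batf (gene ID 53314, chromosome 12, 85686720 to 85709087) was at 63.1, 69.0 and 54.6 CPM in control and 39.6, 59.03 and 57.8 CPM in knockout. Knockout replicate 1 alone was below the control range, and the log2 fold change of -0.27 (SE 0.18) was not called. Batf lies on the same chromosome as Fos.

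Atf3 (gene ID 11910, chromosome 1, 191170296 to 191183333), a gene that many stresses induce strongly, was close to undetected and did not pass the filter. It had 78, 6 and 34 reads in control and 36, 6 and 0 reads in knockout, where 0 reads allow up to 0.0687 CPM (3 reads, counting error only). The groups overlapped, and no fold change is given.

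The order of the family was read per kilobase of exonic length, since longer transcripts yield more reads. Lengths were those of GENCODE M21 protein-coding transcripts, 2.11 kb for Fos, 3.19 for Jun, 1.81 for Junb, 1.67 for Jund and 0.955 for Batf. The RefSeq gene span of Jund begins 1210 bases upstream of its GENCODE start. A longer length would lower its level per kilobase, so its place beside Junb and Batf depends on the length used. In control the levels were 359 ± 37.5 CPM per kb for Fos, 281 ± 21.2 for Jun, 92.7 ± 7.90 for Junb, 90.6 ± 1.35 for Jund, 65.2 ± 7.56 for Batf and 12.4 ± 1.30 for Fosb (SD, n = 3 each). With these lengths Junb and Jund did not differ beyond their spread, Junb being above Jund in 2 of 3 libraries. The other neighbours down to Fosb had no overlapping values. Fosl2, Atf3 and Fosl1 were below 1 CPM per kb in each control library and overlapped as neighbours.

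In knockout the order by the same lengths changed in its middle. Fos at 165 ± 8.80 CPM per kb and Jun at 146 ± 7.82 were still first and second, with no overlap. Jund, at 66.4 to 94.0 CPM per kb (mean 76.8), was above Junb, at 54.2 ± 2.50, in each of the 3 libraries. This holds for the GENCODE length of Jund, and the order with the longer RefSeq span was not computed. Batf, at 54.6 ± 11.4 CPM per kb, lay beside Junb and above it in 2 of 3 libraries. Fosb followed at 3.66 ± 0.785 CPM per kb.

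The summed level of the 9 genes was 1913, 2118 and 2227 CPM in control and 1130, 1121 and 1085 CPM in knockout, so that knockout held 53.3% of the family transcripts of control. Fos and Jun together made up 79.2 ± 1.07% of that sum in control and 73.1 ± 1.11% in knockout (SD, n = 3 each), or 70.9 ± 1.59% and 62.0 ± 0.520% per kilobase. Per kilobase the Fos share was 38.4%, 39.6% and 41.2% in control and 34.3%, 31.9% and 32.6% in knockout, with no overlap. That of Jun was 31.2%, 30.8% and 31.5% against 27.1%, 30.6% and 29.4%. Per kilobase the Jun groups were apart by a narrow margin only, and its shares of CPM did overlap. Jund made up 10.7%, 9.88% and 9.60% in control and 18.4%, 13.2% and 14.2% in knockout. Batf had 7.95%, 7.86% and 5.98% against 8.13%, 12.3% and 12.3%. The groups were apart for both genes, by a narrow margin for Batf. The Junb share was also larger in knockout, by a narrow margin, at 10.15%, 10.21% and 10.46% against 11.07%, 10.87% and 10.50%. So was that of Fosl2, at means of 0.0629% and 0.195%, without overlap. Jund, Batf and Fosl2 were not called in level and Junb was called lower, and these larger shares are of a smaller sum.

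**Figure D2:**
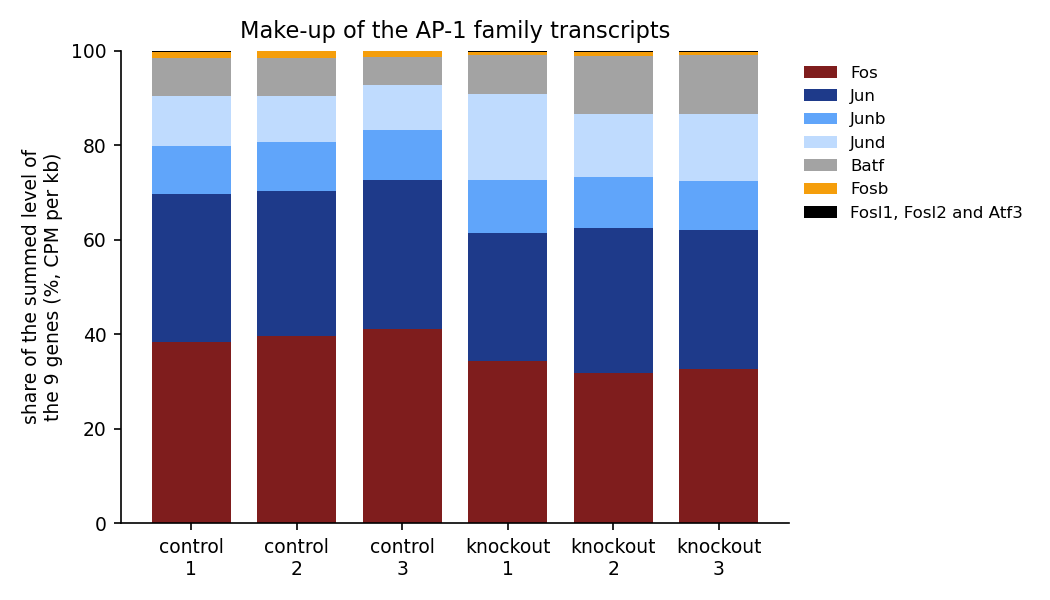
Share of each gene in the summed level of the 9 AP-1 genes, in percent of CPM per kb, for the 3 control and 3 knockout libraries. Fos and Jun make up 70.9% on average in control and 62.0% in knockout. The Jund and Batf segments are larger in knockout, and that of Junb is slightly larger.

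Ratios within a library do not depend on the scaling of that library, and are given per kilobase. Fos over Jun was 1.23, 1.29 and 1.31 in control and 1.27, 1.04 and 1.11 in knockout, with overlapping groups. Both transcripts of this classical heterodimer were lower in knockout, and their ratio did not separate the groups. Fosb over Fos was 0.0368, 0.0381 and 0.0291 in control and 0.0168, 0.0281 and 0.0221 in knockout, with no overlap but with control replicate 3 close to knockout replicate 2. Jund over Jun was 0.344, 0.321 and 0.305 in control and 0.678, 0.431 and 0.485 in knockout. This ratio was separated by a wide margin, and knockout replicate 1 had its highest value. Jund over Junb was 1.06, 0.968 and 0.918 against 1.66, 1.22 and 1.36, again separated. The size of the ratios with Jund depends on the length used for it, whereas their separation between the groups does not. Within the Fos group, Fosb over Fosl2 was 28.5, 17.1 and 23.7 in control and 2.73, 4.68 and 3.94 in knockout, a ratio that rests on the few Fosl2 reads.

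**Figure D3:**
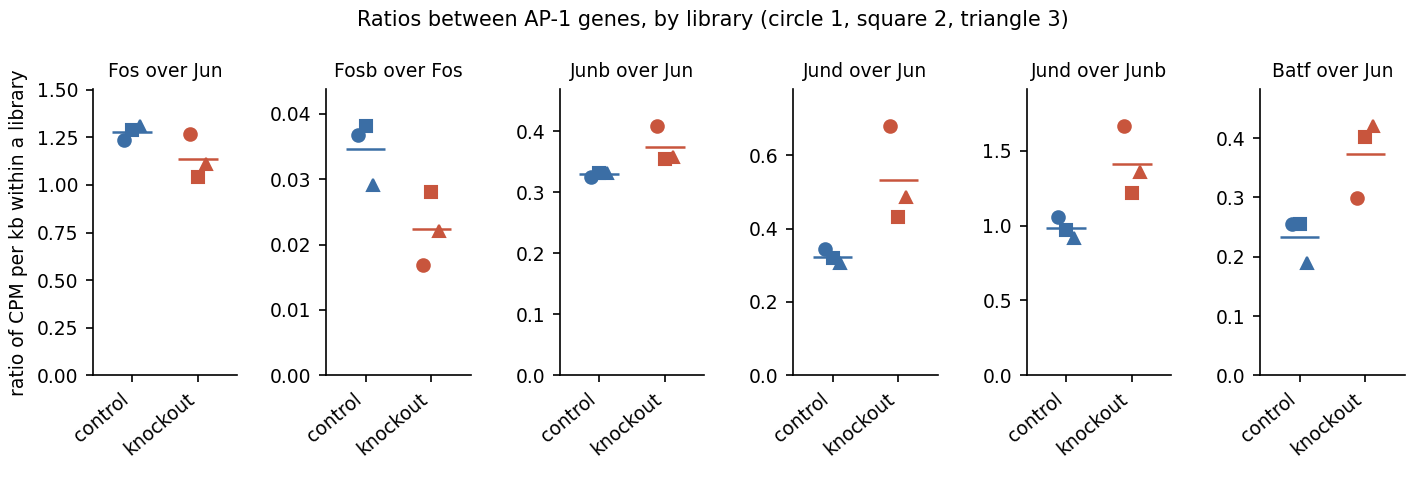
Ratio of the levels of pairs of AP-1 genes within each library, as CPM per kb over CPM per kb, with group means as lines over 3 libraries each. Fos over Jun overlaps between control and knockout, and the other 5 ratios shown do not.

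The genes with a pattern most like that of Fos were sought among 6509 tested genes at or above the median level, by the smallest root mean square difference of mean-centred log2 values over the 6 libraries. They were Zfp36 (0.072), which destabilizes mRNA, Egr1 (0.108), a zinc-finger transcription factor, Jun (0.121), Dusp1 (0.125), a MAP kinase phosphatase, Padi4 (0.135), a peptidylarginine deiminase, and 9030619P08Rik (0.15). For Jun they were Dusp1 (0.079), Ppp1r15a (0.092), a stress-induced phosphatase regulator, Padi4 and Zfp36 (0.105 each), Junb (0.11) and Atg7 (0.111), an autophagy enzyme. The 6 libraries fall into 2 groups, so any gene that differs between them by a like amount comes out close, and no test was made of these distances.

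Immediate early genes outside AP-1 were read from a list of 26. Of 22 tested, 5 were called lower and 0 higher, with a median log2 fold change of -0.39 beside 0.003 for all genes. Over all genes limma called 0.292% lower and 0.407% higher. This list and the other lists were chosen with earlier results of these data known, so nothing is read from their counts. At an unadjusted p below 0.05 the list had 10 lower and 1 higher, and voom called 6 of its genes. For this and the other lists, the all-gene count at that unadjusted cut was 1342 of 13018, both directions together. Voom called 52 of the 13018 genes lower and 61 higher. Egr1 went from 179 ± 9.41 to 74.5 ± 4.26 CPM (SD over 3 libraries each), with limma giving -1.26 on the log2 scale (SE 0.10, adjusted p = 0.000282). Zfp36 went from 290.4 ± 23.8 to 147 ± 10.8 CPM and Dusp1 from 471 ± 34.9 to 252 ± 7.31 CPM. Ier2, a short-lived nuclear protein gene, fell by 0.59 (SE 0.07) and Klf6, a Krüppel-like factor, by 0.68 (SE 0.12) on the log2 scale. The Ier2 call was lost without the trend (adjusted p = 0.136) and without the filter. The Klf6 call was lost in 10 of 12 fits that left out a library (adjusted p 0.0152 to 0.154 over the 12), with the replicate block, without the filter and without the trend (0.263). Members named after their values were seen were Myc, at 502 ± 26.2 and 505 ± 37.5 CPM, and Nfkbia, at 162 ± 10.5 and 155 ± 10.2 CPM, both with overlapping groups. The list therefore held genes with separated and genes with overlapping levels.

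Heat shock genes, most of which encode chaperones, were read from a list of 13, of which 12 were tested. None was called lower and 1 was called higher (limma). At an unadjusted p below 0.05 there were 0 lower and 3 higher, which were Hspa8, Hsph1 and Dnaja1, while voom called 1 gene. Of the 12, 4 had a negative log2 fold change. Every knockout library was above every control library for 4 of the 12, against 8.52% of all genes. Hspa8, a constitutive chaperone, went from 731 ± 19.7 to 958 ± 25.7 CPM (log2 fold change 0.39, SE 0.05, limma adjusted p = 0.0051). Its call was lost without the trend (0.294), without the filter, and without knockout replicate 3 with the tested genes kept (0.0509). The stress-inducible genes Hspa1a and Hspa1b, named after their values were seen, were at 2.41 ± 0.723 and 4.77 ± 0.826 CPM in control and 2.23 ± 0.965 and 4.40 ± 0.998 CPM in knockout. Hsp90ab1 and Hsp90aa1, likewise named afterwards, were at 2030.5 ± 60.2 and 627 ± 17.4 CPM in control and 1991 ± 36.7 and 587 ± 42.3 CPM in knockout, with overlapping groups.

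Among 26 other leucine zipper partners and relatives, from the ATF, CREB, MAF, NFE2 and BACH families, 25 were tested and 0 called by limma, with a median log2 fold change of -0.04. At an unadjusted p below 0.05 there were 3 lower and 1 higher, and voom called 1. Creb5, a partner of Jun proteins, was at 25.4, 37.7 and 28.2 CPM in control and 8.74, 11.3 and 3.43 CPM in knockout. The groups did not overlap, and the log2 fold change of -2.11 (SE 0.41) missed the threshold (limma adjusted p = 0.0582). Creb5 was called in 7 of 22 alternative fits. Of the 12 fits that left out a library, 1 called it, with limma adjusted p from 0.047 to 0.184 over the 12. Jdp2, the Jun dimerization protein, which represses AP-1 sites, was at 39.2, 38.6 and 50.6 CPM in control and 33.3, 26.7 and 20.3 CPM in knockout, again without overlap and without a call (log2 fold change -0.70, SE 0.22, adjusted p = 0.283).

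Regulators that act on Fos through serum response factor, its ternary complex partners and their kinases were all tested, 15 of 15, and 0 called by limma or voom (median log2 fold change 0.10), with 1 higher and 0 lower at an unadjusted p below 0.05. Rps6ka4, a kinase downstream of MAP kinases, had a log2 fold change of 0.76 (SE 0.33, limma adjusted p = 0.469), and Rps6ka2 had 0, 0.244 and 2.36 CPM in control and 11.5, 1.54 and 1.67 CPM in knockout. Srf itself, named after its values were seen, was at 27.1 ± 1.05 CPM in control and 36.8 ± 7.44 CPM in knockout, not called (adjusted p = 0.489). Each of these 3 genes had a higher mean in knockout, and none passed the test. Of all 15 genes of the list, 6 had a negative log2 fold change.

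MAP kinases and the kinases above them, which phosphorylate the proteins that act on Fos and Jun, gave 0 calls by limma or voom among 24 tested of 25 (median 0.08), with 3 higher and 2 lower at an unadjusted p below 0.05. Mapk12, a p38 isoform, was at 13.5 ± 9.43 and 3.61 ± 1.33 CPM (adjusted p = 0.256), and Map2k1, the kinase that activates ERK, at 87.5 ± 0.849 and 111 ± 6.51 CPM (adjusted p = 0.281, limma). Their protein activity was not measured. Partners and turnover factors of AP-1 proteins gave 0 calls among 15 (median -0.01) by limma, by voom and at an unadjusted p below 0.05, Ncor1, a corepressor, having a log2 fold change of -0.12 and Crebbp, a coactivator, one of -0.21.

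Genes known as AP-1 targets in fibroblasts, epithelia and macrophages numbered 24, of which 14 were tested and 0 called by limma (median 0.00). At an unadjusted p below 0.05 there were 2 higher and 3 lower, and voom called 1. Mmp3, Mmp13, Timp1 and Fasl were at 0 reads in all 6 libraries, so that much of this list cannot be read in LT-HSC. Ccnd1, cyclin D1, was at 52.5, 49.1 and 63.6 CPM in control and 27.1, 40.3 and 29.8 CPM in knockout, without overlap and without a call (log2 fold change -0.78, SE 0.19, limma adjusted p = 0.149). Tgfb1 stood at 69.9 ± 0.573 and 109.7 ± 12.4 CPM, in the opposite direction (log2 fold change 0.64, SE 0.12, adjusted p = 0.0513), and was called higher in 7 of 22 alternative fits.

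**Figure D4:**
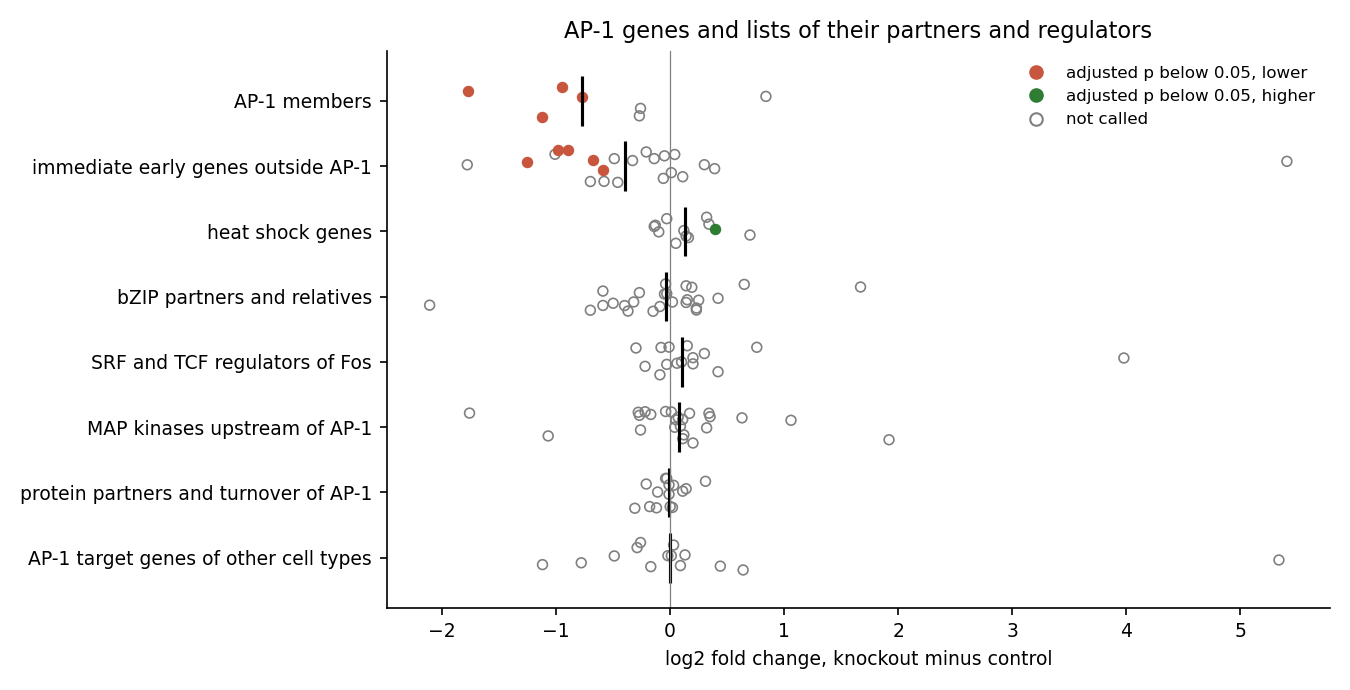
Log2 fold change, knockout minus control, of each tested gene of the AP-1 family and of 7 lists of related genes, with the list median as a black bar and other genes as open points. Filled points passed the all-gene test, and these are 4 AP-1 genes, 5 other immediate early genes and Hspa8.

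Many markers of granulocytes, and some of other mature cell types, were higher in the knockout libraries, while other markers were not called. Over all 13018 genes tested, limma called 0.407% higher, and voom called 61 genes higher and 52 lower. The summed level of 14 neutrophil genes was 393 to 413 CPM in control and 1211 to 1430.0 CPM in knockout, with 10 of 14 called higher and Mmp8 at 0 reads in control. For 11 eosinophil, basophil and mast cell genes it was 101 to 112 CPM and 717 to 817 CPM, with 7 of 10 tested called higher and Epx, Ear1, Mcpt8, Prss34 and Ms4a2 at 0 reads in each control library. For 11 monocyte and macrophage genes it was 577 to 595 CPM and 801 to 914 CPM, with 2 of 8 called higher and Adgre1 and Mrc1 at 0 in control. For 8 B and plasma cell genes it was 235 to 279.9 CPM and 452 to 482 CPM, with 1 of 6 called and Igkc and Ms4a1 at 0 in control. Stromal genes summed to 22.8 to 25.02 and 36.9 to 46.3 CPM, with 1 of 4 called by limma (Cxcl12, adjusted p = 0.0452) and 0 by voom, and Pdgfra, Col3a1, Dcn and Lum at 0 in control. Endothelial genes summed to 297 to 347 and 371 to 390.3 CPM, with 0 of 8 called by limma or voom and 2 higher at an unadjusted p below 0.05. The T and NK cell list (76.2 to 101 and 94.8 to 122 CPM), the erythroid list (57.5 to 79.7 and 99.1 to 105 CPM) and the megakaryocyte list (962 to 1034 and 1329 to 1524 CPM) had 0 of 3, 0 of 7 and 1 of 8 called, with Cd3e, Cd3d, Cd3g, Cd8a, Gzma and Hba-a1 at 0 in control. At an unadjusted p below 0.05 these 3 lists had 0, 6 and 5 higher, and voom called 0, 0 and 1. At that unadjusted cut the neutrophil list had 11 of 14 higher and the eosinophil, basophil and mast cell list 9 of 10. The monocyte list had 5 of 8 higher, the stromal list 2 of 4, and the B cell list 5 of 6 with 1 lower. The 14 neutrophil genes took 0.0393% to 0.0413% of the scaled reads in control and 0.121% to 0.143% in knockout. Among markers that were not called, and named after their values were seen, Prtn3 of the neutrophil list was at 209 ± 7.07 and 211 ± 11.8 CPM and Cpa3 of the mast cell list at 12.7 ± 0.955 and 12.8 ± 2.51 CPM. Cd79b of the B cell list was at 61.0 ± 2.86 and 45.6 ± 5.72 CPM, with each knockout library below each control library. In that list 5 of 6 genes tested had each knockout library above each control library, such as Igkc, at 0 and 118 ± 5.26 CPM. So had 12 of 14 neutrophil genes, such as Mpo, at 1.95 ± 1.83 and 254 ± 18.7 CPM. In the eosinophil, basophil and mast cell list 8 of 10 had, such as Prg2, at 0.519 ± 0.463 and 382 ± 44.4 CPM. Over all genes 8.52% had. The part of these cell types in the lower AP-1 levels was not tested.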

How the data were processed

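The 6 libraries of sorted LT-HSC were deposited by the authors as 1 table of log2 values for 27179 genes with NCBI gene IDs. The tools, per the submitters' processing notes, were HISAT2, featureCounts, FastQC and limma, with build mm10; any version or strand setting was not given in the sources used here. Each deposited value equals log2 CPM after adding 0.5 read. Undoing this gave whole reads for 100.0% of values (tolerance 0.01), from which the CPM in the text were computed. RefSeq symbols (GRCm38.p6) matched 25275 IDs. Counting limits cover counting error only.

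The 13018 genes that reached 1 CPM in 3 or more libraries were tested with limma 3.58.1 in R 4.3.3 (lmFit, eBayes with trend, no block) and Benjamini-Hochberg adjustment over all of them. Fold changes are on the deposited log2 scale. The test was also run on simulated counts with a spread taken from these libraries. That run cannot show whether calls hold beyond the pools that were sorted. The members and lists were chosen with earlier results of these data known. Named were the 9 members, Prdm16, called list genes (up to 6 a list, otherwise the 2 with smallest p), and the 6 genes most like Fos and Jun. The replicate numbers are not said to pair libraries. A planned comparison of the proteins was not made, and 1 marker gene is not reported here. Alternatives were other filters, scalings, offsets, variance models, voom, a block for replicate number, and fits without single libraries. Figures used matplotlib 3.10.9 in Python 3.11.15.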

Additional observations from a re-analysis of the deposited data

How the results depend on the processing

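The count of 4 AP-1 genes called lower held in 20 of 22 alternative fits and was 3 in the other 2, without the trend and without knockout replicate 3 with the tested genes kept, in both of which Junb was lost. No AP-1 gene was called higher in any of the 22, and none of the 7 log2 fold changes turned its sign. With replicate number as a block the count was 4. Same-numbered libraries did not deviate together (correlations of deviations from group means -0.0102, -0.0211 and 0.0195), and over all genes the block gave 23 lower and 44 higher calls. The all-gene count of 38 lower was 14 without the filter, 15 without the trend, 59 with log2(CPM + 1), 64 with log2(CPM + 5), and 19 to 31 on leaving out a library (with the tested genes kept, 24 without knockout replicate 1, 19 without its replicate 2, and 25 without control replicate 2). That of 53 higher was 19 without the filter, 105 and 104 with the 2 larger offsets, and 20 to 66 on leaving out a library (28 without knockout replicate 1 with the tested genes kept). Without the filter more genes were tested, and the cause of the other shifts was not tested. Of the 7 related lists together, 5 genes were called lower and 1 higher. Lower calls numbered 3 without the filter and without the trend, and 8 with a filter of 5 CPM, after quantile normalization and with either larger offset, and 4 to 6 on leaving out a library. Higher calls numbered 0 without the filter or the trend, 2 with voom, robust eBayes, median centring, quantile normalization or the filter of 5 CPM, 3 with either larger offset, and 0 to 2 on leaving out a library. The share of Fos and Jun was 70.9% (control) and 62.0% (knockout) per kilobase, and 63.5% and 53.8% for Fos alone once Jun, the gene with most reads, was left out of the sum. The Prdm16 call was lost without the filter (adjusted p = 0.0599), without the trend (0.0967) and without knockout replicate 2 (0.0508 and 0.065). Depth limits Fosl1 and Atf3, with 0 to 78 reads a library.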
